A study of Mus musculus with 7 samples.

Results

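Mitosis, kinetochore and condensin genes were examined across 2 stages of red cell development in the mouse fetal liver. Members were taken by symbol: genes starting with Kif, Cenp, Aurk, Bub, Plk, Ncap, Smc, Anapc, Ccna, Ccnb, Nek or Tub, together with Cdk1, Cdc20, Mki67, Top2a, Tpx2, Prc1, Mad2l1 and Incenp. Of 5194 genes in the deposited expression table, 81 matched. A RefSeq table holds 158 protein-coding symbols of this kind, and the other 77, Bub1, Smc5 and Smc6 among them, had no listed exon and were not analysed here. The label fits most but not all members. Aurkaip1, Kifbp and Smcr8 match by symbol only and are known for other functions, and several kinesins, NIMA-related kinases and tubulins also serve cells outside division.

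At the entry into mitosis, CDK1 with an A-type or B-type cyclin, Aurora kinases and Polo-like kinase 1 drive chromosome condensation and spindle assembly. Condensin compacts the chromosomes, cohesin holds sister chromatids together, and kinetochores built on the centromere attach them to microtubules made of alpha- and beta-tubulin. The spindle checkpoint holds back the anaphase-promoting complex, a ubiquitin ligase, until attachment is complete. Red cell precursors in the fetal liver divide several times while they mature, and then leave the cell cycle before the nucleus is expelled.

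All cells came from mice whose Klf1 gene carries a hemagglutinin tag, at embryonic stage E13.5, and no untagged group was used here. Klf1 encodes EKLF, an erythroid transcription factor, and the tag allowed chromatin immunoprecipitation sequencing (ChIP-seq) with an antibody against it. Progenitors were sorted as cells without the red cell antigen Ter119, pooling those with and those without CD71 (the transferrin receptor), and erythroblasts as cells with both antigens. The 7 samples were 1 ChIP library and 1 input library per stage, 1 progenitor RNA library and 2 erythroblast RNA libraries. The deposited files gave 1 value per exon and 1 pooled peak list per stage, so no stage difference below has a replicate check and no p-value is given. A list of 15 erythroid marker genes gave 8 listed entries, where globin genes that share their listed exons were joined in 1 entry. Of these 8 entries 6 were at least 2-fold higher in erythroblasts. Marker genes of B cells, endothelium and stroma, macrophages, hepatocytes, mast cells and granulocytes were looked for, and none was listed. Of the other lists, the leukocyte gene Spn had a coverage of 196 in progenitors and 6.70 in erythroblasts, and the platelet gene Gp1ba had 9.35 and 31.6. Whether such cells play a part in the results below was not tested.

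Levels are the authors' coverage signal, summed over the listed coding exons of 1 transcript per gene. Exon length was not divided out, so a level is compared between the stages for the same gene and not between genes. A stage difference is log2((erythroblasts + 1) / (progenitors + 1)), and a gene is said to have risen or fallen in erythroblasts where it differed at least 2-fold on that scale. Each listed exon has at least 0.8 in both stages, so a gene silent in either stage could not enter. If the smallest step of the values is 1 base, a level of 1 stands for 36.0 reads in progenitors and 42.2 in erythroblasts, and every member value rests on at least 31.9 reads. In such sorted bulk samples, fewer cells of a type and less RNA per cell cannot be told apart.

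The first comparison asked how RNA of these genes differs between erythroblasts and progenitors. Of the 81 members 29 rose (35.8%), 5 fell (6.17%) and 47 did neither, beside 15.3% of all 5194 genes that rose and 13.2% that fell. The falls include Tuba1b and Tuba1c and the rises include Kifc1 and Kifc5b. Each pair are close copies that may share reads, which was not tested, so the counts may hold the same reads more than once. The median stage difference was 0.50 over members and 0.03 over all genes. The difference lay above 0 for 65 members (80.2%), and for 51.2% of all genes. The largest rises were those of Tpx2 (2.41), Tuba4a (2.32), Smc4 (2.10) and Prc1 (1.98), and the largest fall was that of Cenpv (-2.15). Among the 48 members with a mean coverage of at least 20, 18 rose (37.5%) and 3 fell (6.25%), beside 17.5% and 15.0% of the 2063 genes with that coverage.

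**Figure D1:**
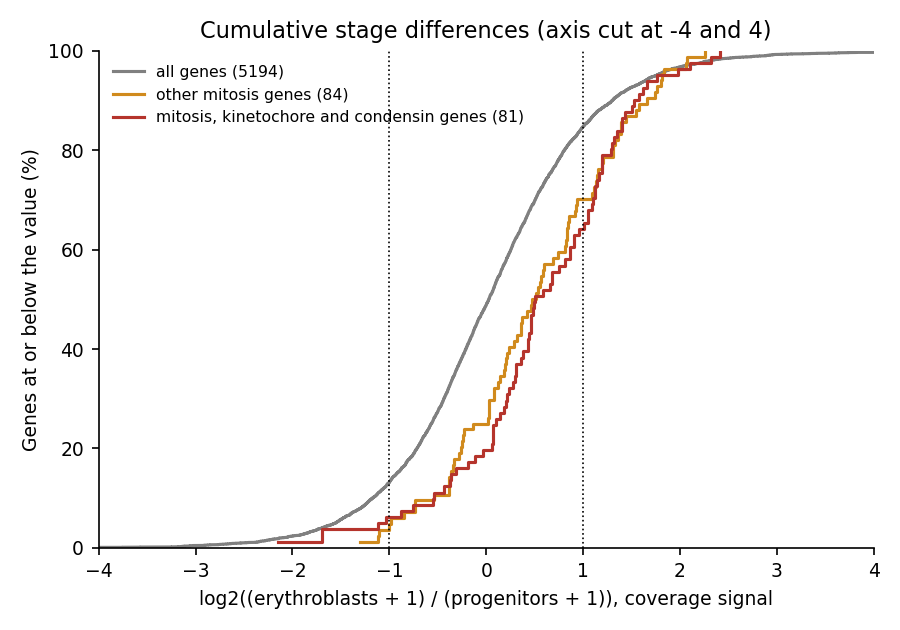
Cumulative share of genes (y axis, percent) by stage difference on the log2 scale (x axis, cut at -4 and 4) for the 81 members, 84 other mitosis genes and all 5194 genes, with dotted lines at the 2-fold rule. The curve of the members crosses 50% at 0.50 and that of all genes at 0.03, and the curves of members and other mitosis genes lie close together.

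**Figure D2:**
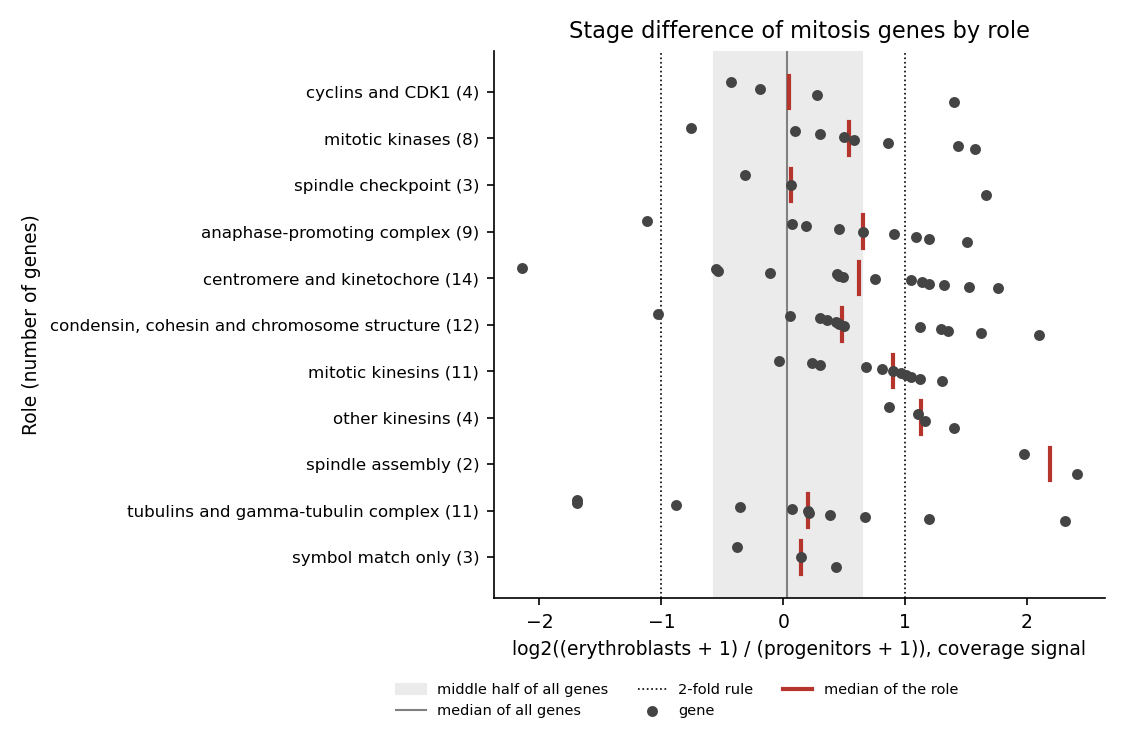
Stage difference (x axis, log2 scale) of each member, by role (y axis, number of genes in parentheses). Points are genes, red bars medians of a role, the grey band runs from -0.57 to 0.65 (lower to upper quartile of all genes), and dotted lines mark the 2-fold rule. Spindle assembly and kinesin genes lie to the right, and the alpha-tubulin genes lie on both sides.

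Promoter sequence was examined for members whose level passed the rule and that had an EKLF peak, because cell cycle promoters and EKLF sites are known by short motifs. Sequences are the 250 bases before the RefSeq start (build GRCm38.p6), read 5′ to 3′ on the strand of the gene and printed in lower case. Of 81 members 69 had an entry. Sequences are printed for the 6 members past the rule, with a peak and an entry, that had the largest stage differences in either direction. Capitals mark 4 motifs, each searched on both strands. They are the CCAAT box (CCAAT), the cell cycle homology region or CHR (TTTGAA), an EKLF-type CACC motif (CCNCNCCC) and the E2F motif (TTTNNCGC where each N is C or G). Matches may overlap each other and are then joined in 1 run of capitals. A CCAAT box was in 38 of the 69 member promoters (55.1%), in 34.5% of all 27025 promoters and in 38.7% of promoters of genes in the table. A CHR was in 18 (26.1%), beside 16.3% and 10.8%, and an E2F motif in 7 (10.1%), beside 1.91% and 4.62%. The EKLF-type motif was in 44 (63.8%), beside 45.6% of all promoters and 64.3% of promoters of genes in the table. Of the 24 risen members with an entry 12 had a CCAAT box and 6 a CHR, and of the 40 that did neither 24 and 11 had them. A match is a run of letters and not a bound site.

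By summed exons Ccnb2 differed from Cdk1 and the other listed cyclin genes. Ccnb2, which activates CDK1 at mitotic entry, rose from 26.7 to 72.0, a stage difference of 1.40 (exon SD 0.70), and all 8 exons were higher in erythroblasts. Cdk1, the kinase itself, had 64.2 in progenitors and 47.4 in erythroblasts, a difference of -0.43. Of its 5 exons 4 were lower in erythroblasts. Ccnb1, the other main mitotic cyclin, had 7.99 and 6.90 on 1 listed exon. Ccna2, which acts in S phase and early mitosis, had 93.6 and 114 (0.28, exon SD 1.68). Its exons were divided, the first 4 higher and the last 2 lower in erythroblasts. Of these 4 genes 1 rose and none fell.

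Among the mitotic kinases 2 of 8 rose and none fell. Nek2, a centrosome kinase, rose from 7.14 to 21.0 with all 3 exons higher. Nek1 had 0.95 and 4.80 on 1 exon, also past the rule (1.57) but at a low level. The Aurora and Polo-like kinases stayed under the rule. Aurka, of the spindle poles, had 86.1 and 129 (0.58), and Plk1 had 71.3 and 101 (0.50). Aurkb, the kinase of the chromosomal passenger complex, had 48.8 and 52.3 (0.10). Plk4, which starts centriole duplication, had 3.09 and 6.43 (0.86), and Nek9 leaned the other way with 16.7 and 9.48 (-0.76) and all 5 exons lower.

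The listed checkpoint genes gave 1 rise in 3. Mad2l1, whose product inhibits CDC20, rose from 4.93 to 17.8 (1.66) on 2 exons. Bub1b had 64.7 and 67.8 (0.07), and its 13 exons were divided, 8 higher and 5 lower. Bub3 had 103 and 83.1 (-0.31). Only Mad2l1 of the 3 passed the rule.

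In the anaphase-promoting complex 3 of 9 genes rose and 1 fell. Anapc13 rose from 7.60 to 23.4 (1.51) and Anapc15 from 4.45 to 11.5 (1.19) on 2 and 4 exons. Anapc7 rose to 11.8, a difference of 1.09, with all 3 exons higher. Anapc1, the largest scaffold subunit, fell from 130 to 59.4 (-1.11), and 15 of its 17 exons were lower in erythroblasts. Its fall rests on more exons than any other fall among the members. Cdc20, the activator of the complex at anaphase, had 77.9 and 107 (0.46), under the rule although all 10 of its exons were higher. Anapc5 had 154 and 176 (0.19).

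Centromere and kinetochore genes rose in 6 of 14 cases and fell in 1. Cenpa, the histone H3 variant that marks centromeres, rose from 14.3 to 34.0 (1.19) with all 4 exons higher. Cenpb, which binds centromeric satellite DNA, rose from 11.3 to 40.5 (1.76) on 1 exon. Incenp, the scaffold of the chromosomal passenger complex, rose from 160 to 333 (1.05), and 14 of its 16 exons were higher. Aurkb, the kinase of the same complex, differed by 0.10. Cenpf rose from 19.1 to 49.2 (1.32), Cenpw from 2.93 to 10.3 (1.53) and Cenph from 1.81 to 5.20 (1.14). Cenpv fell from 19.8 to 3.71, the largest fall, with both of its listed exons lower. The motor gene Cenpe had 1.04 and 2.43 on 1 exon, and 6 of the 14 genes rested on 1 exon.

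Cenpb and Cenpw rose, both had an EKLF peak in the erythroblast list alone, and their promoters are shown. That of Cenpb (chr2:131180068-131180317, minus strand) held 1 E2F motif and no match of the other motifs. That of Cenpw (chr10:30200541-30200790, minus strand) held 1 CCAAT box that overlaps 1 CHR, and 1 EKLF-type motif.
Cenpb: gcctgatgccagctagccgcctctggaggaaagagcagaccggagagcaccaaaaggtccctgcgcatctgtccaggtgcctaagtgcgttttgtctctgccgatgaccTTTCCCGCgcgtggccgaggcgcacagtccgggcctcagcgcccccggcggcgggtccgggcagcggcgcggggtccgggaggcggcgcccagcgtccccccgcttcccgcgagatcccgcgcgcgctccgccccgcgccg
Cenpw: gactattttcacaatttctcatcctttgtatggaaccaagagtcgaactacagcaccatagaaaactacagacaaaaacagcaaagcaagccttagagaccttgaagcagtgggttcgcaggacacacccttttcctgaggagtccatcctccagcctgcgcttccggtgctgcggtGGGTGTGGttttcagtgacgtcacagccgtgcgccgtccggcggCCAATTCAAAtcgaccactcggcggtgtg

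Of the 12 genes of condensin, cohesin and chromosome structure 5 rose, 1 fell and 6 did neither. Top2a, the topoisomerase that untangles chromosomes, rose from 93.4 to 289 (1.62, exon SD 1.19), with 14 of 16 exons higher. Mki67, the proliferation marker that coats mitotic chromosomes, rose from 696 to 1777 (1.35) with all 9 exons higher. The condensin ATPase gene Smc4 rose from 12.7 to 57.7 (2.10, exon SD 0.61) with all 6 exons higher. Its partner Smc2 had 6.28 and 2.57, a fall of -1.03 on 2 exons. The cohesin gene Smc3 rose from 25.3 to 63.4 (1.29), all 10 exons higher, while its partner Smc1a had 113 and 145 (0.36). Of the 20 Smc1a exons 17 were higher in erythroblasts, and the last 3 were lower.

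The non-SMC subunits of condensin leaned upward, and 1 of 6 passed the rule. Ncaph2, of condensin II, rose from 67.1 to 147 (1.12), and all 17 exons were higher. Ncapd2 had 265 and 376 (0.50) with 26 of 31 exons higher. Ncaph had 17.7 and 24.7, Ncapg 1.03 and 1.74, and Ncapg2 14.2 and 17.8, with differences from 0.30 to 0.46, and Ncapd3 differed by 0.06. The stage difference lay above 0 for all 6.

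The promoter of Top2a (chr11:99024190-99024439, minus strand) held 6 CCAAT boxes and 2 CHR matches, both motifs known from cell cycle promoters. It held no EKLF-type match, and an EKLF peak lay near the gene in the progenitor list alone. Smc4, which also met the condition for printing, had no entry.
Top2a: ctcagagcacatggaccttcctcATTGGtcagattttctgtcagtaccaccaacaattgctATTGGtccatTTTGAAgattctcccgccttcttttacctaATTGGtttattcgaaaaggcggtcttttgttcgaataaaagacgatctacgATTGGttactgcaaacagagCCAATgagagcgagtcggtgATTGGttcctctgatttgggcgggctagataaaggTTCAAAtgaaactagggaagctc

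Kinesins, motors that slide microtubules or move chromosomes along them, mostly had higher levels in erythroblasts. Of 11 kinesins of mitosis 4 rose, none fell and 10 lay above 0. Kif15, which supports spindle bipolarity, rose from 19.0 to 48.4 (1.30) with all 7 exons higher, and Kif18b, a microtubule-end regulator, from 55.7 to 122 (1.12) with all 14 higher. Kif20b rose from 4.99 to 11.4 (1.05) and Kifc1 from 42.2 to 85.9 (1.01), just past the rule. Kif11, the main motor of spindle pole separation, had 4.39 and 9.50 (0.96), just under it, and Kif22, a chromosome arm motor, had 85.8 and 151 (0.81). Kif4 had 2.17 and 4.07 (0.68), Kif23, of the central spindle, had 23.9 and 29.6 (0.30), Kif2c, a microtubule depolymerase, differed by 0.24 with 5 of 8 exons higher, and Kif20a, of cytokinesis, had 88.2 and 86.2 (-0.03).

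Of the 4 other kinesins 3 rose. Kif5b, a cargo motor, rose from 8.56 to 24.2 (1.40), Kif3b, a motor of cilia and transport, from 2.03 to 5.77 (1.16) on 1 exon, and Kifc5b from 30.6 to 66.9 (1.10). Kifc5b is a close copy of Kifc1, so their reads cannot be told apart with certainty. Kif24 had 29.9 and 55.4 (0.87).

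Both spindle assembly genes rose, and on every listed exon. Tpx2, which activates Aurora A and nucleates microtubules around chromosomes, rose from 35.5 to 193, a difference of 2.41 (exon SD 0.61, 10 exons). Prc1, which bundles the central spindle, rose from 23.5 to 95.3 (1.98, SD 0.80 over 6 exons). Aurka, the kinase that TPX2 activates, differed by 0.58. The Prc1 promoter (chr7:80294201-80294450, plus strand) had 4 EKLF-type motifs and 1 CCAAT box, and it is the first of 2 listed starts.
Prc1: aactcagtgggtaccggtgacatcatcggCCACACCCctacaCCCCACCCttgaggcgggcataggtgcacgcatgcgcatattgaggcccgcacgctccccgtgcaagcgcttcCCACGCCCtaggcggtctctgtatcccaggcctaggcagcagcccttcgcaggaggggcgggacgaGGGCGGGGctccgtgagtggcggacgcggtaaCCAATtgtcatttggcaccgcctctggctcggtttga

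**Figure D3:**
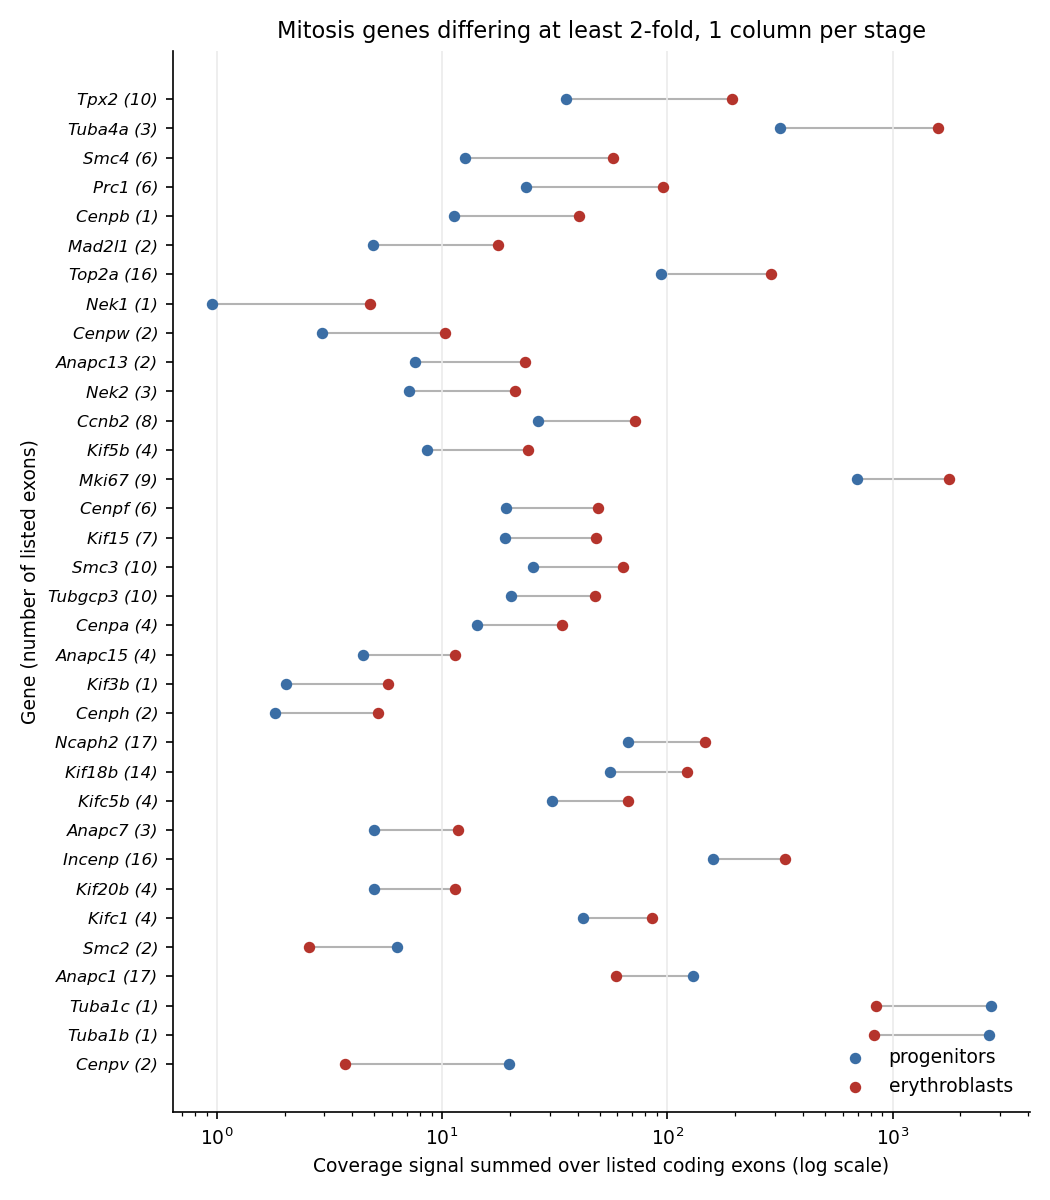
Coverage signal (x axis, log scale) in progenitors (blue) and erythroblasts (red) for the 34 members past the 2-fold rule, in order of the stage difference (y axis, number of listed exons in parentheses). Points are the authors' values with no error, and levels are not comparable between genes. The 5 genes at the bottom fell, and Tpx2 and Tuba4a at the top rose from 35.5 to 193 and from 317 to 1584.

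Alpha-tubulin genes went in opposite directions. Tuba4a rose from 317 to 1584 (2.32, SD 0.73 over 3 exons), while Tuba1b fell from 2692 to 831 and Tuba1c from 2729 to 843, both by 1.69 on the log2 scale. Tuba1b and Tuba1c each rested on 1 exon, and their values differed by 1.37% in progenitors and 1.42% in erythroblasts. They are close copies of each other, so their values are uncertain as those of separate genes, and whether they share reads was not tested. Among beta-tubulins Tubb5 had 1788 and 974 (-0.88), under the rule, with 2 of its 4 exons lower. Tubb4b had 504 and 805 (0.67) and Tubb2a had 38.1 and 44.2 (0.21). Beta-tubulin genes are also alike in sequence, and their values carry the same uncertainty. In the gamma-tubulin complex, which nucleates microtubules, Tubgcp3 rose from 20.2 to 47.6 (1.20) with all 10 exons higher, and the other 4 genes lay between -0.36 and 0.38.

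The promoters of Tuba4a (chr1:75219295-75219544, minus strand) and Tuba1b (chr15:98934391-98934640, minus strand) belong to genes that moved in opposite directions. They held 3 and 5 EKLF-type motifs, and no match of the other motifs was found in either.
Tuba4a: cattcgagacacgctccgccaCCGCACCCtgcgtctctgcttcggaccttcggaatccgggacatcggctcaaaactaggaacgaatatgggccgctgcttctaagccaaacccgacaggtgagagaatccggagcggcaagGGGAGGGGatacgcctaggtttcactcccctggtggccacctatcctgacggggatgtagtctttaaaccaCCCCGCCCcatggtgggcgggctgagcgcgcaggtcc
Tuba1b: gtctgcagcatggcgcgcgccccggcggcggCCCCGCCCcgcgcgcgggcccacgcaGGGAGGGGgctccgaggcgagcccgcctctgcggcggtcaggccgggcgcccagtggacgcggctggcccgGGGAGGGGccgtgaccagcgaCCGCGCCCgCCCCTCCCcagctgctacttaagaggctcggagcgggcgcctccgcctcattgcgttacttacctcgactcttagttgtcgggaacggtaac

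The 3 genes taken by symbol match only did neither. Aurkaip1, a protein of the mitochondrial ribosome, had 45.0 and 60.9, Smcr8 had 28.2 and 31.3, and Kifbp had 8.73 and 6.50. Without them the median difference of the members was 0.62. The 11 members not described one by one, such as Anapc4 and Cenpo, were all under the rule, with differences from -0.55 to 0.91.

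The exons of 1 gene did not always move together. Of the 47 members with at least 4 listed exons, 30 had a higher stage difference in the 5′ part of the exons than in the 3′ part (63.8%), as had 53.5% of 2118 such genes in all. The parts were the exons before and after the middle of the listed exons. In Ccna2 the 5′ part differed by 1.59 and the 3′ part by -0.75, as its last 2 exons had 32.8 each in progenitors and 10.7 and 19.4 in erythroblasts. In Cenpf the parts differed by 2.38 and 0.28, in Smc1a by 0.88 and -0.30, and in Tubb5 by 0.09 and -0.95. Incenp went the other way, with 0.77 in the 5′ part and 1.33 in the 3′ part, and so did Kif5b with 0.44 and 1.59. In all, 7 of the 47 members (14.9%) had parts that differed by at least 1, beside 14.8% of all such genes. The 5′ parts gave 16 rises and 1 fall (16.3% and 11.3% of all such genes), and the 3′ parts gave 15 and 1 (14.7% and 12.0%).

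**Figure D4:**
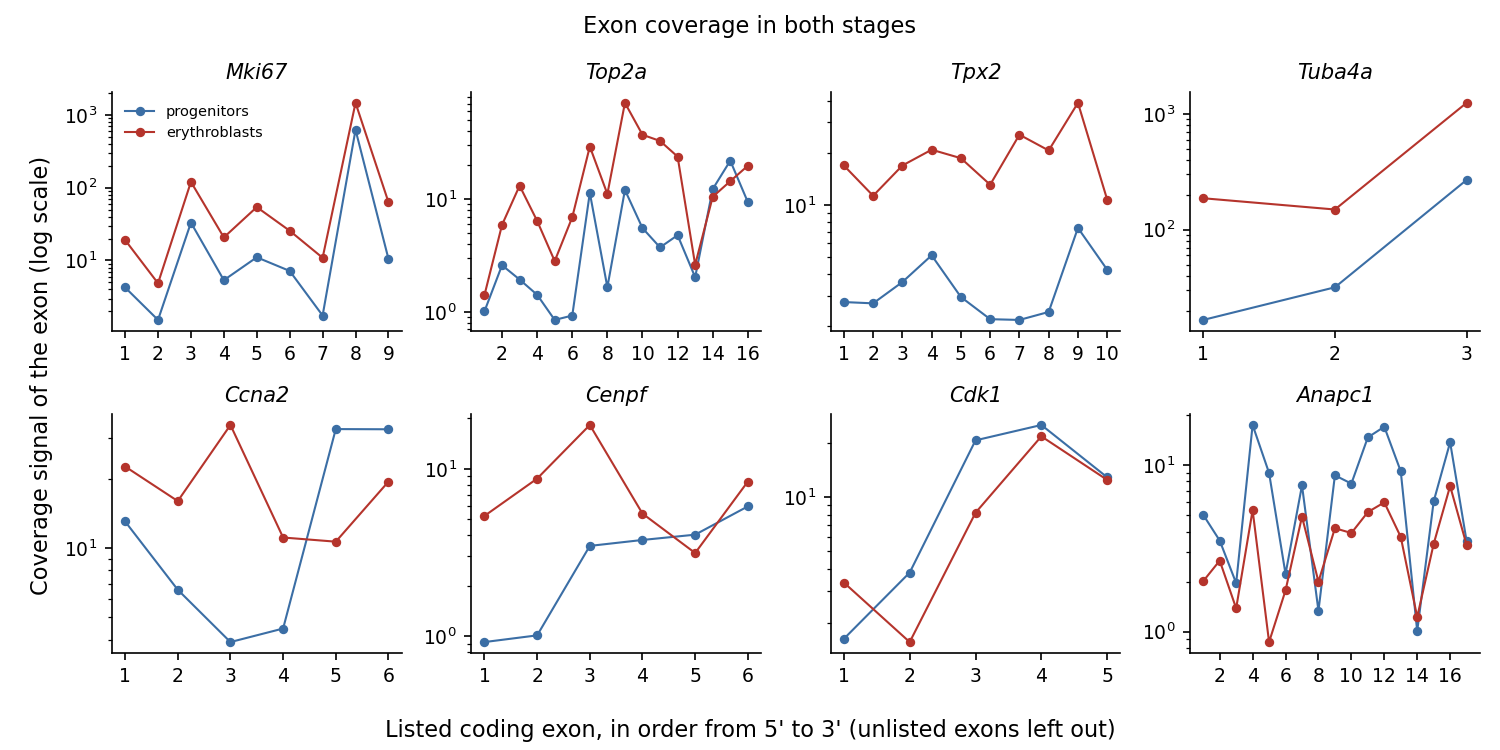
Coverage signal of each listed coding exon (y axis, log scale) from 5′ to 3′ (x axis, position among listed exons) in progenitors (blue) and erythroblasts (red) for 8 genes. The lines of Mki67, Tpx2 and Tuba4a are apart at every exon, those of Ccna2 and Cenpf cross, and 15 of 17 Anapc1 exons are lower in erythroblasts.

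Genes of mitosis that the symbols do not take gave similar counts. Of 105 genes on a list of this kind 84 were in the table, of which 25 rose (29.8%), 4 fell (4.76%) and 55 did neither, with a median difference of 0.49. Nusap1, a spindle microtubule protein, rose from 15.7 to 78.6 (2.25), and Pttg1, the securin that holds back chromatid separation, from 10.8 to 48.5 (2.07). Rad21, the cohesin subunit cut at anaphase, rose from 66.0 to 182 (1.45), and Aspm, of the spindle poles, from 12.9 to 47.5 (1.81). Birc5, the survivin of the chromosomal passenger complex, rose from 20.4 to 46.1 (1.14). Wee1, which inhibits CDK1, fell from 6.94 to 2.23 on 1 exon, and Ppp2r1a, a scaffold of the phosphatase PP2A, fell from 112 to 50.9 (-1.12). Espl1, the separase, had 84.6 and 105, and Foxm1, a transcription factor of mitotic genes, had 49.3 and 50.4, both under the rule. The Nusap1, Pttg1, Rad21, Aspm, Birc5, Wee1, Ppp2r1a, Espl1 and Foxm1 values were chosen for naming after they were seen. So were the Cdca8, Stag1 and Stag2 values given further below.

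The second comparison asked where EKLF peaks lie near these genes. Peaks were taken between the first and last listed exon start or within 5 kb of them. Exons that were not listed do not extend this window. A promoter more than 5 kb from the listed exons was therefore not searched, and a gene without a peak here may have one there. Both lists had a peak at 24 members (29.6%, beside 27.1% of all genes). The erythroblast list alone had one at 18 members (22.2%, beside 19.4%), the progenitor list alone at 4 (beside 3.79%), and 35 members had none (43.2%, beside 49.7%). These shares are near those of all genes. The erythroblast list holds 19353 peaks and the progenitor list 7358. With lists of equal length 5 members had an erythroblast peak alone and 10 a progenitor peak alone (beside 6.80% and 13.3% of all genes), so which of these classes is larger depends on the lengths of the lists.

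Peaks lay at members of every call. An erythroblast peak lay at 13 of the 29 members that rose, 1 of the 5 that fell and 28 of the 47 that did neither, beside 46.5% of all genes. A progenitor peak lay at 9, 1 and 18 of them, beside 30.9%. Tpx2, with the largest rise, had no peak of either list within this window around its listed exons. The same held for Cdk1, Mad2l1, Smc3, Anapc1 and Cenpv. The members with peaks in both lists included Mki67, Smc4, Ccna2, Ccnb1, Aurkb, Nek2, Ncapd2, Kifc1 and Tuba1b. Those with an erythroblast peak alone included Ccnb2, Plk1, Plk4, Aurka, Cdc20, Bub3, Incenp, Cenpa, Cenpb, Kif20a, Kif23 and Tuba4a. The 4 with a progenitor peak alone were Prc1, Top2a, Anapc2 and Tubgcp6. The progenitor peak of Prc1 overlapped an erythroblast peak that ended outside the window, so its class depends on the window.

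Of the 6 erythroblast peaks with the highest enrichment 5 lay at members under the rule and 1 at Kifc1, which rose. Coordinates are of build mm9, and enrichments are the authors' values, read within 1 list. Anapc11 had a peak on chromosome 11 from 120458457 to 120460859 with an enrichment of 50.4, within the highest 0.248% of the list, and the window of Alyref also holds it. Tubb4b had one on chromosome 2 from 25078744 to 25081373 with 42.4 that covered 3 listed exon starts. Ccna2 had one on chromosome 3 from 36470065 to 36471729 with 27.2 at its 5′-most listed exon. Kif22 had one on chromosome 7 from 134168124 to 134171888 with 24.8, also in the window of Maz. Anapc5 had one on chromosome 5 from 123270198 to 123272008 with 22.3. Kifc1 had the same enrichment, for the peak chr17:34026570-34028768. The median of the whole erythroblast list was 9.31. The stage differences of Anapc11 and Tubb4b, which had the highest enrichments, were 0.07 and 0.67.

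In the progenitor list the highest member peak was that of Kifc1, on chromosome 17 from 34026514 to 34028732, with an enrichment of 16.8, within the highest 1.79% of that list. Tubg1, the gamma-tubulin gene, followed with 15.0 on chromosome 11 from 100980182 to 100982293, and Tubb5 with 13.6 on chromosome 17 from 35977583 to 35979394, in the window of Mdc1 as well. Mki67 had 13.1 on chromosome 7 from 142906863 to 142908851, and Ccnb1 had 12.6 on chromosome 13 from 101555573 to 101557732. All 5 overlapped an erythroblast peak. The median of the whole progenitor list was 7.03. Enrichments of the lists were scaled separately and show no change between stages.

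Most member peaks had their centre upstream of the listed start of the 5′-most listed exon. That start is the lower coordinate of the exon, so for reverse-strand genes it is the exon's 3′ end. There a centre inside the exon also counts as upstream. The exon need not be the first of the gene, so a place upstream of it can still lie inside the gene. Of 54 erythroblast peaks 39 had their centre upstream of this start, and 25 had it within 2 kb. Of 34 progenitor peaks the counts were 27 and 17. No share over all genes is given beside these counts. Of the 34 progenitor peaks 30 overlapped an erythroblast peak (88.2%, beside 85.4% of progenitor peaks at all genes), and of the 54 erythroblast peaks 30 overlapped a progenitor peak (55.6%, beside 50.8%). Another listed gene shared the window of 18 erythroblast and 12 progenitor peaks. Mki67 had a further erythroblast peak inside the gene, on chromosome 7 from 142887500 to 142891718 with 14.9, that no progenitor peak overlapped. Tuba4a had erythroblast peaks on chromosome 1 from 75206772 to 75207852 with 15.7 and from 75214332 to 75217092 with 5.05, the latter near the low end of the list, and both in the window of Stk16.

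**Figure D5:**
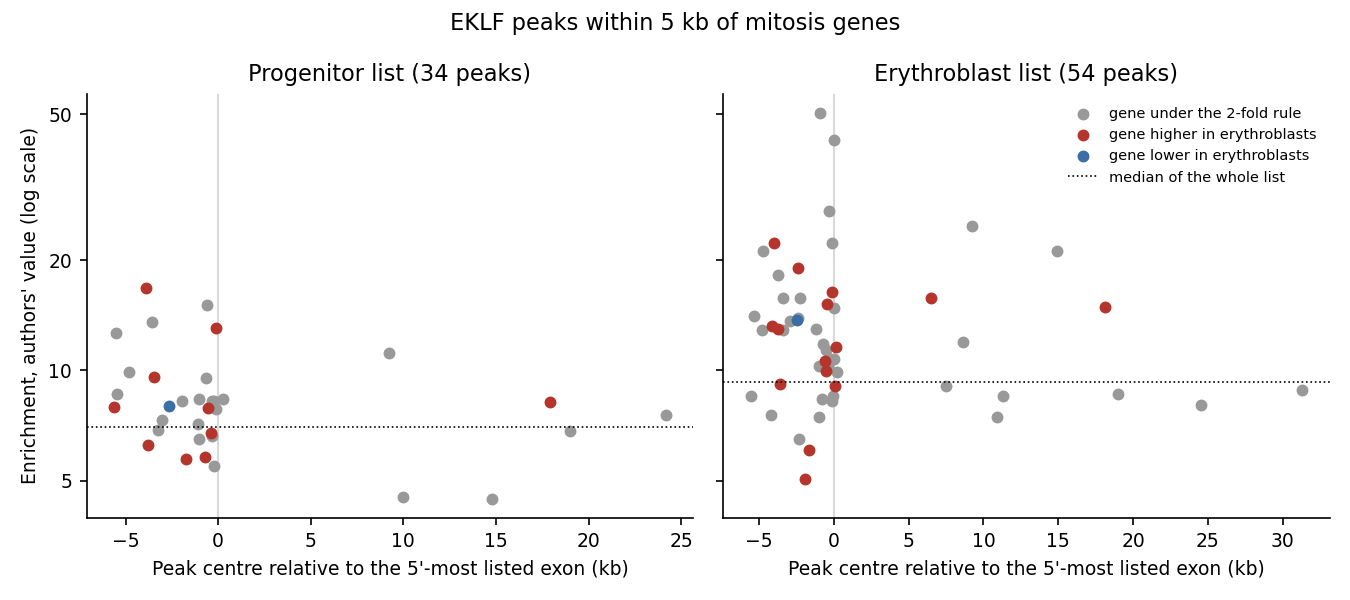
Enrichment (y axis, log scale, authors' values) of each EKLF peak within 5 kb of a member against the distance of its centre from the 5′-most listed exon in kb (x axis, negative is upstream), for the progenitor list (34 peaks) and the erythroblast list (54 peaks). Colours give the call of the gene and the dotted line the median of the whole list (7.03 and 9.31). Peaks gather just upstream of that listed exon, which need not be the first of the gene, and genes that rose lie among the others.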

How the data were processed

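The members and gene lists were chosen with earlier results of these data known. The authors deposited a table named RPKM whose values are a coverage signal per coding exon: all are whole multiples of 1 step per column (100% within 0.01), 1835 steps making up 1 unit for progenitors, 2151 for erythroblasts. No source used here says whether the erythroblast column pools both RNA libraries. In the deposited peak lists 1 column was taken as the fold enrichment of the authors over input, and another as their deposited −log10 p. Build mm9 is named in the submitters' processing notes; aligner, counter and peak caller: not given in the sources used here.

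Of 6853 RefSeq transcripts 6772 matched a symbol of the GRCm38.p6 table. Exons of the transcript with most listed exons were summed. Genes needed at least 1 in at least 1 stage, and the 81 members were counted after this filter. The planned limma test needed a column per library and was replaced by the 2-fold rule, as planned. The exon SD is spread within a gene, not replicate error. For lists of equal length, peaks were ranked by −log10 p. Members named are those past the rule with at least 5 in the higher stage, a fixed set of core mitosis genes, the best covered 2 per role, the 5 strongest peaks per list and up to 6 promoters. Nek1, Nek9, Kifbp, Anapc2, Anapc4, Cenpo, Tubgcp6 and Tubb2a are named outside this rule and were chosen after their values were seen. The steps were tested on simulated data. Alternatives were other pseudocounts, filters, scalings, exon summaries, windows and peak subsets. Python 3.11.15, pandas 2.3.3 and numpy 2.4.6 were used.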

Additional observations from a re-analysis of the deposited data

How the results depend on the processing

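The counts of 29 rises and 5 falls stayed within 1.5 times of these values under other pseudocounts and scalings, with at least 5 in a stage and with a 1.5-fold rule, and no named member that passed the rule changed sign. Among the 48 members with a mean coverage of at least 20 the counts were 18 and 3. With at least 3 listed exons only 1 fall was left, that of Anapc1. Chosen after seeing the data, the 5′ and 3′ parts of the exons (47 genes) gave 16 and 15 rises and 1 fall each. The median difference of 0.50 was 0.67 with a pseudocount of 0.1, 0.62 with at least 5 in a stage, 0.67 with at least 3 exons, 0.71 by exon median, 0.70 in the 5′ parts and 0.62 without the genes matched by symbol only. Of 33 named members past the rule 16 stayed past it in every setting run for them. Not all were run in the same settings, since genes with few listed exons could not enter those based on exon parts. Kif18b, Mki67, Ncaph2, Prc1, Smc3, Smc4, Top2a and Tpx2 were run in 14 settings. Nek2 and Tuba4a were run in 12, Anapc13, Cenpb, Cenpv, Mad2l1 and Tuba1b in 11, and Tuba1c in 10. Peak classes followed the window. With 1 kb 15 members had peaks in both lists and 2 in progenitors alone. With 10 kb 23 had none, and with 50 kb 54 had both and 5 had none. The shares of all genes at these windows are not given here. The counts therefore show how the classes depend on the window and nothing particular to the members. With lists of equal length 5 members had an erythroblast peak alone and 10 a progenitor peak alone. No paired analysis was possible because each stage has 1 column of values. No RNA library could be left out for the same reason. Values of members near 1 rest on few reads, and their differences are understated by the pseudocount.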

Other observations

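Some members lay close to the 2-fold rule, and their calls turn on it. Kifc1 (1.01) and Incenp (1.05) passed it, and Kif11 (0.96) and Anapc4 (0.91) did not. Incenp had 0.77 by the 5′ part of its exons, which would not pass. Kif20a, at -0.03 by its summed exons, had a median exon log2 ratio of 0.63 with 11 of 16 exons higher in erythroblasts.

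Within single complexes the subunits gave unlike values. In condensin Smc4 differed by 2.10 and Smc2, on 2 exons at a low level, by -1.03. The 6 non-SMC subunits lay between them, from 0.06 to 1.12. In cohesin Smc3 and Rad21 differed by 1.29 and 1.45, Smc1a by 0.36, Stag1 by 0.09 and Stag2 by -0.25. The Smc1a value is that of summed exons, of which 17 of 20 were higher, and its median exon log2 ratio was 0.82. In the chromosomal passenger complex Birc5 and Incenp differed by 1.14 and 1.05, Cdca8 by 0.83 and Aurkb by 0.10. Differences within a complex were not tested, since each stage has 1 value per gene.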
